A study of Mus musculus with 2 samples.

Results

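The core circadian clock loop was described in mouse gastrocnemius, the large calf muscle, as 10 genes chosen by name out of 55536 annotated genes. The members were the activator genes Arntl (also called Bmal1), Clock and Npas2, the period genes Per1, Per2 and Per3, the cryptochrome genes Cry1 and Cry2, and the REV-ERB receptor genes Nr1d1 and Nr1d2. Total RNA was sequenced, after ribosomal RNA was reduced, from 2 adult males of the strain B6CASTF1/J aged 8 to 10 months, with 1 library per animal. Such mice are F1 offspring of a cross of C57BL/6J with CAST/EiJ, and the tables do not separate the parental alleles. The animals form 1 group with no treatment named, and the labels call them animal 4 (biological replicate 2) and animal 2 (biological replicate 1) under 1 shared donor identifier. The sources used here give no hour of tissue collection, light schedule or feeding state. The comparisons are therefore between genes within an animal and between the 2 animals, not between conditions.

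The circadian clock is a feedback loop of transcription that runs in nearly every cell. CLOCK, or its relative NPAS2, pairs with the Arntl product BMAL1 and switches on the Per, Cry and Nr1d genes through E-box DNA elements, and PER and CRY proteins then return to the nucleus and block that pair. The REV-ERB proteins made from Nr1d1 and Nr1d2 repress Arntl and other genes through DNA elements that ROR receptors also bind. In a muscle with a running clock, Arntl RNA cycles roughly opposite in phase to Nr1d1, Per3 and Dbp RNA, and the clock sets daily rhythms of genes for fuel use.

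Promoter windows of 4 members are shown because the loop acts through short DNA elements, and these windows differ in which of them they hold. The sequences are RefSeq windows in GRCm38.p6 (mm10), from 250 bases before to 50 bases after an annotated start, and 9 of the 10 members had at least 1 window, 13 in all. Capitals mark matches on either strand to the E-box CACGTG, the related E-prime box CACGTT, which reads as AACGTG when it lies on the opposite strand, the D-box TTATGTAA with its variant TTATGCAA, bound by PAR bZIP factors, and the core of the ROR and REV-ERB element, TAGGTCA with its variant TGGGTCA. The cAMP response element TGACGTCA was also searched, and none of the 13 windows held it.
Arntl, chr7:113207261-113207560, plus strand: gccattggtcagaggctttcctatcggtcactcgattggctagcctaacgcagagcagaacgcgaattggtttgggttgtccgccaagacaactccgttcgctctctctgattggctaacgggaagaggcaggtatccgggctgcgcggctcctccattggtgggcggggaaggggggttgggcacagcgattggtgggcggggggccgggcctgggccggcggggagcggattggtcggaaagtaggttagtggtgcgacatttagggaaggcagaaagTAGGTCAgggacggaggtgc
Per1 upstream start, chr11:69098699-69098998, plus strand: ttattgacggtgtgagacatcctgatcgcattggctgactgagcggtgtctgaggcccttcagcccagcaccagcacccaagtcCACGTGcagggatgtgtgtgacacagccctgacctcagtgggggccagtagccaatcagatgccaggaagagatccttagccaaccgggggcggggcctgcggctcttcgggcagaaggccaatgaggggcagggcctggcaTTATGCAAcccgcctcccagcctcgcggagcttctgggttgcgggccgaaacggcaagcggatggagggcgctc
Per1 downstream start, chr11:69099902-69100201, plus strand: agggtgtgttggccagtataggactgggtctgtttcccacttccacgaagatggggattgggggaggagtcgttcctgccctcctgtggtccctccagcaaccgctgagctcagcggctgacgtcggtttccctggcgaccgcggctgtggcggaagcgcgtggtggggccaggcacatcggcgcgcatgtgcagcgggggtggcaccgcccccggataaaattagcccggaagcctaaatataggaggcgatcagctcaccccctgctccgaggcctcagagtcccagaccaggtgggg
Per3, chr4:151044616-151044915, minus strand: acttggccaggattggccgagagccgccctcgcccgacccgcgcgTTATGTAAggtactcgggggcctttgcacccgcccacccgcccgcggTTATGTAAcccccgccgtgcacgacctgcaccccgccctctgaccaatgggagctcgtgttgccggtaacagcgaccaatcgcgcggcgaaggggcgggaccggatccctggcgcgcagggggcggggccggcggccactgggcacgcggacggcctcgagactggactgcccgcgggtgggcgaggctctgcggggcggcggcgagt
Nr1d1, chr11:98775328-98775627, minus strand: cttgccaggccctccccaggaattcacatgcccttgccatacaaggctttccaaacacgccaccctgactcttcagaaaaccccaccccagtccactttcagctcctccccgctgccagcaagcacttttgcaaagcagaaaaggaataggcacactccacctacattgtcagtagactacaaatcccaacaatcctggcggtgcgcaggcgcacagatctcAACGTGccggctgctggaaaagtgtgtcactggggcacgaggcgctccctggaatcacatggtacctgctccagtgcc

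Of the 13 windows, 6 held a match, in 6 of the 9 genes, and the windows of Clock, Npas2 and Nr1d2 held none. The Arntl match was to the ROR and REV-ERB core and began at base 31 counted from the start at base 113207511. The other Arntl window, at base 113207465 where Arntl-201 begins, held no match. That window ended at base 113207514, before the ROR and REV-ERB core, so it did not reach this element. Per1 had an E-box 166 bases and a D-box 24 bases before its upstream start, and the window at its downstream start held none of the searched letters. Per3 had 2 D-boxes, 205 and 158 bases before its start, and Nr1d1 an E-prime box 28 bases before its start. Cry1 had an E-box and an E-prime box, 60 and 79 bases before its start, and Cry2 an E-prime box 166 bases before its start. Of all 32851 windows of this length, 7.15% held the E-box, 4.68% the E-prime box, 1.66% a D-box, 6.45% the ROR and REV-ERB core and 1.79% the cAMP element. The matches are descriptions of these letters and not evidence of binding.

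The library of replicate 2 had 37752252 estimated gene counts and that of replicate 1 had 36792619. The 10 members together held 15349 counts in replicate 2 and 11854 in replicate 1, or 407 and 322 CPM, unscaled, in replicates 2 and 1. External spike-ins held 0.308% and 0.257% of the gene counts in replicates 2 and 1. The libraries differed beyond sampling noise, with a chi-square of 94.4 per degree of freedom over 14101 genes. That value is set against counting error only, so it cannot tell 2 animals from 2 libraries of 1 animal. The libraries were treated as 2 animals because their labels carry different animal numbers. Skeletal fibre markers, general and fast, were abundant, with a summed level of 83380 TPM in replicate 2 and 78602 TPM in replicate 1. TPM is a relative abundance corrected for transcript length. Values after ± are SDs over 2 animals, and every level is from whole muscle, where fewer cells of a type and less RNA per cell cannot be told apart.

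All members were detected, and their levels covered a wide range with the REV-ERB genes at the top and Npas2 at the bottom. Nr1d1 averaged 44.9 ± 14.8 TPM and Nr1d2 34.8 ± 0.933 TPM, followed by Per1 at 25.9 ± 2.70 TPM and Cry2 at 12.6 ± 1.77 TPM. Clock averaged 7.71 ± 0.431 TPM, Arntl 6.42 ± 2.31 TPM and Cry1 5.40 ± 0.0849 TPM. Per3 averaged 3.58 ± 1.27 TPM, Per2 2.96 ± 0.0849 TPM and Npas2 0.35 ± 0.396 TPM. Neighbours in this order whose ranges over the 2 animals overlapped, and which are therefore not ordered, were Nr1d1 and Nr1d2, Clock and Arntl, Arntl and Cry1, and Per3 and Per2. Nr1d1 lay above 90.5% of the tested genes by mean TPM and Npas2 above 8.81%.

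**Figure D1:**
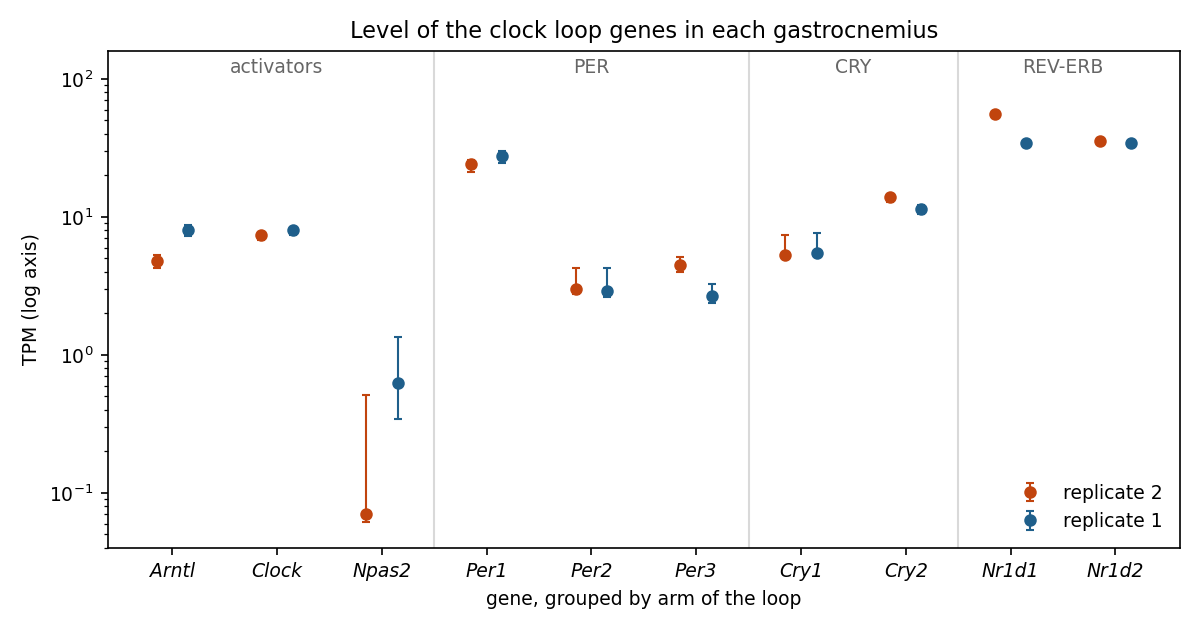
Level of each clock loop gene in TPM on a log axis, replicate 2 left and replicate 1 right, with bars for the deposited credibility bounds of the quantifier, which cover counting and assignment of reads only. Nr1d1 reached 55.4 TPM in replicate 2, against 34.5 TPM in replicate 1, and Arntl had 4.78 TPM in replicate 2, against 8.05 TPM in replicate 1.

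Between the animals, 5 of the 10 members passed the exact test, against 21.2% of the 14101 genes tested. The test asks whether the scaled counts of these 2 libraries differ by more than counting error. It has no replicate check, so its p-values say nothing about how often 2 such mice differ. Of the members, 4 were higher in replicate 2 (Per3, Cry2, Nr1d1 and Nr1d2; background 10.6%) and 1 was lower in replicate 2 (Arntl; background 10.6%). By a rule of size alone, 1.5-fold apart at a mean of 100 or more counts, 3 of 9 eligible members were apart, against 3.38% of 9515 genes. Per3 and Nr1d1 were higher in replicate 2 (background 1.66%) and Arntl lower (background 1.72%), though Nr1d1 at 0.57 missed 1.5-fold with spike-in scaling and Arntl at -0.57 missed it with total counts. Where a coefficient of variation between animals of 0.1 was assumed in edgeR's exact test, 2 members passed (Per3 and Nr1d1, against 2.06% of genes), and with 0.2 none of the 10 passed, against 0.589% of genes, nor did any have an unadjusted p under 0.05. The median log2 ratio of replicate 2 over replicate 1 was 0.04 over the members and 0.0046 over all tested genes, and the median absolute ratio was 0.12 over the 9515 better-counted genes. Scaling by spike-ins shifts every log2 ratio by a median of -0.15 and by total counts by 0.11, which bears on members with small ratios: the signs of Clock, Per1, Per2, Cry1 and Nr1d2 lay on either side of 0 or at 0 depending on the scaling.

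**Figure D2:**
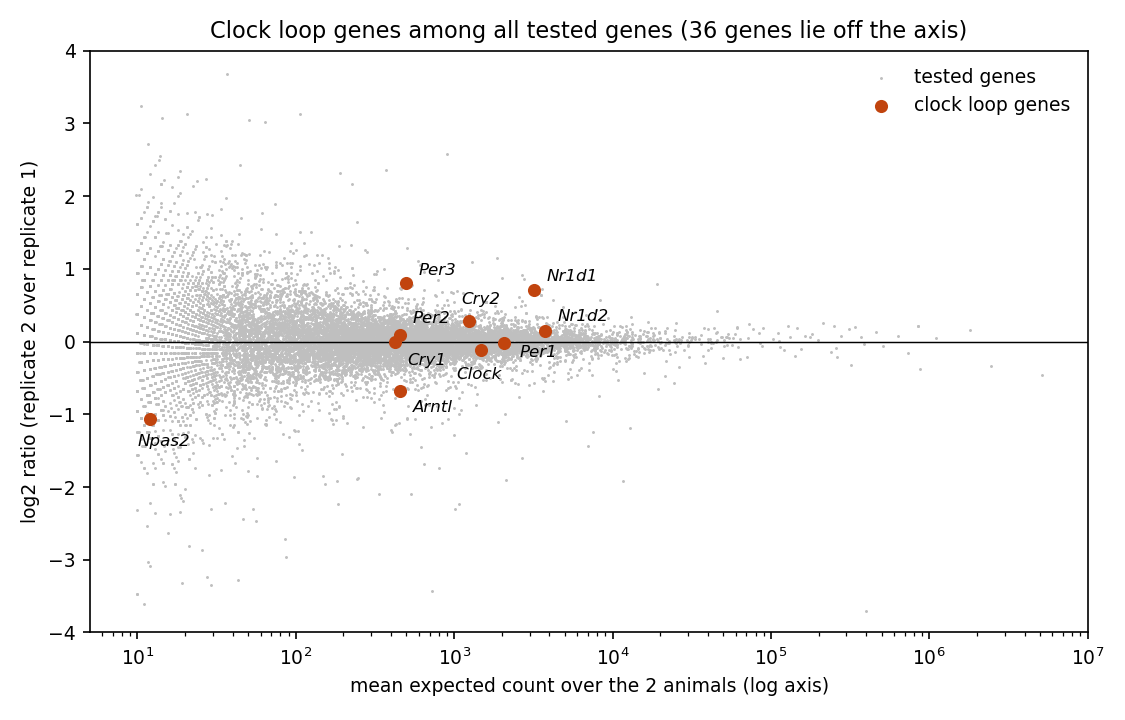
Log2 ratio of replicate 2 over replicate 1 against the mean expected count on a log axis, for the 14101 tested genes (grey, with 36 off the vertical axis) and the 10 clock loop genes. Per3 and Nr1d1 sit above 0 at 0.80 and 0.72 and Arntl below at -0.68, outside the bulk of genes of like count, while Per1, Per2 and Cry1 sit close to 0.

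Among the activators, Arntl, which encodes the partner shared by CLOCK and NPAS2, differed between the animals. Arntl (ENSMUSG00000055116.8, chr7:113207465-113314126, plus strand) had 372 counts at 4.78 TPM in replicate 2, against 538 counts at 8.05 TPM in replicate 1. It was lower in replicate 2, by a log2 ratio of -0.68 with a 95% counting interval from -0.88 to -0.49 (exact binomial test, Benjamini-Hochberg adjusted p = 5.51e-11), so the scaled count was 1.60-fold higher in replicate 1. Clock (ENSMUSG00000029238.11, chr5:76209868-76304792, minus strand), whose product also acetylates histones, had 1495 counts at 7.40 TPM in replicate 2, against 1457 counts at 8.01 TPM in replicate 1. Its log2 ratio of -0.11, with an interval from -0.22 to -0.0081, did not pass the threshold (exact test, adjusted p = 0.124). With spike-in scaling Clock did pass, at -0.26 (exact test, adjusted p = 7.24e-06).

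Npas2 (ENSMUSG00000026077.15, chr1:39193731-39363236, plus strand), the relative of Clock best known from the forebrain, was close to the detection limit. It had 8 counts in replicate 2, against 16 in replicate 1, and its log2 ratio of -1.07 had an interval from -2.58 to 0.16 (exact test, adjusted p = 0.246). A difference was not detectable at this depth. Its level was 0.07 TPM in replicate 2, with deposited bounds from 0.0614 to 0.514, against 0.63 TPM in replicate 1, with bounds from 0.346 to 1.36. In replicate 1, 4 of the 16 reads were assigned to Npas2-203, an annotated fragment of 484 bases, which took 66.1% of the gene's TPM there and none in replicate 2. In CPM per kilobase of the longest coding transcript, Npas2 had 0.0481 in replicate 2 and 0.107 in replicate 1. On that scale Clock exceeded Npas2 by a log2 ratio of 6.34 in replicate 2 and 5.31 in replicate 1, and on the TPM scale by 6.72 and 3.67 in replicates 2 and 1.

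Within the period family, whose products form the repressor complex with CRY proteins, Per1 held most of the RNA and Per3 differed between the animals. Per3 (ENSMUSG00000028957.12, chr4:151003652-151044665, minus strand) had 659 counts at 4.47 TPM in replicate 2, against 340 counts at 2.68 TPM in replicate 1. It was 1.74-fold higher in replicate 2, a log2 ratio of 0.80 with an interval from 0.61 to 1.00 (exact test, adjusted p = 7.28e-16). The Per3 promoter window holds the 2 D-boxes shown above, and the upstream Per1 window also holds a D-box. Per1 (ENSMUSG00000020893.17, chr11:69095217-69109960, plus strand), which also responds quickly to hormones and cAMP, had 2176 counts at 24.0 TPM in replicate 2, against 1981 counts at 27.8 TPM in replicate 1. Its log2 ratio was -0.01 with an interval from -0.10 to 0.07 (exact test, adjusted p = 0.90), and with spike-in scaling it was -0.16 and passed the test (exact test, adjusted p = 0.00132). Per2 (ENSMUSG00000055866.9, chr1:91415982-91459324, minus strand), a main target of phosphorylation by casein kinase 1, had 494 counts at 3.02 TPM in replicate 2, against 419 counts at 2.90 TPM in replicate 1. Its log2 ratio was 0.09 with an interval from -0.10 to 0.28 (exact test, adjusted p = 0.617).

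By share, Per1 made up 76.2% of period TPM in replicate 2 and 83.3% in replicate 1. Per3 made up 14.2% in replicate 2 and 8.02% in replicate 1, and Per2 9.58% and 8.68% in replicates 2 and 1. Per1 was thus the leading period gene in each animal. Per3 was listed above Per2 in replicate 2 and slightly below it in replicate 1. The deposited TPM bounds of Per2 and Per3 overlapped in both animals, so their order is not settled. The log2 ratio of Per2 to Per3 was -0.57 in replicate 2 and 0.11 in replicate 1. Ratios within an animal do not depend on how the libraries are scaled. Per1 exceeded Per2 by a log2 ratio of 2.99 in replicate 2 and 3.26 in replicate 1, and reads per kilobase of the longest coding transcript gave a smaller gap of 2.46 and 2.56 in replicates 2 and 1.

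The cryptochromes, the core repressors of the CLOCK and BMAL1 pair, differed little or not detectably between the animals. Cry1 (ENSMUSG00000020038.10, chr10:85131700-85185064, minus strand) had 446 counts at 5.34 TPM in replicate 2, against 402 counts at 5.46 TPM in replicate 1. Its log2 ratio of -0.00085 had an interval from -0.20 to 0.20 (exact test, adjusted p = 1). Cry2 (ENSMUSG00000068742.11, chr2:92403646-92434043, minus strand) had 1436 counts at 13.9 TPM in replicate 2, against 1063 counts at 11.4 TPM in replicate 1. It was 1.22-fold higher in replicate 2, a log2 ratio of 0.28 with an interval from 0.17 to 0.40 (exact test, adjusted p = 1.86e-05). With spike-in scaling the Cry2 ratio was 0.13 and missed the threshold (exact test, adjusted p = 0.0621). Cry2 was the more abundant cryptochrome, at 72.2% of their summed TPM in replicate 2 and 67.6% in replicate 1.

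The REV-ERB genes, nuclear receptors that bind heme and close the second arm of the loop, were the most abundant members and only Nr1d1 was 1.5-fold apart. Nr1d1 (ENSMUSG00000020889.11, chr11:98767932-98775333, minus strand) had 4107 counts at 55.4 TPM in replicate 2, against 2252 counts at 34.5 TPM in replicate 1. It was 1.64-fold higher in replicate 2, a log2 ratio of 0.72 with an interval from 0.64 to 0.79 (exact test, adjusted p = 1.01e-80). Nr1d2 (ENSMUSG00000021775.11, chr14:18204054-18239127, minus strand) had 4156 counts at 35.5 TPM in replicate 2, against 3386 counts at 34.2 TPM in replicate 1. Its log2 ratio of 0.15, with an interval from 0.08 to 0.21, passed the test (exact test, adjusted p = 0.000177), and its direction turned to -0.0045 with spike-in scaling. Nr1d1 and Nr1d2 were nearly equal in replicate 1, with a log2 ratio of 0.01, and Nr1d1 led in replicate 2, with 0.64.

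Nr1d1 overlaps Thra, the thyroid hormone receptor gene on the opposite strand, over 263 bases, which is 8.55% of its exonic length. The library kit marks strand, but the setting used in counting is not given in the sources used here, so reads in that overlap are uncertain. Thra had 2086 counts in replicate 2, against 1623 in replicate 1, a log2 ratio of 0.21 (exact test, adjusted p = 0.000124), which is smaller than that of Nr1d1. The genes overlapping Cry2 (D930015M05Rik, 295 bases) and Arntl (Gm45355, 33 bases) were listed at 0 counts in both animals. Of the 31-base words of Nr1d2 transcripts, 90.5% occurred in no other gene, and the shared ones lie in AC170187.1, which had 6.41 counts in replicate 2 and 5.39 in replicate 1. For the other members at least 99.5% of words were their own.

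Set against each other, the activators were on average lower and the period and REV-ERB genes on average higher in replicate 2. The mean log2 ratio was -0.62 over the 3 activators and 0.35 over the 5 period and REV-ERB genes, a difference of -0.97 with a counting interval from -1.37 to -0.57. The difference describes these 2 libraries, and library scaling cancels out of it. Npas2, with few reads, carries part of it, and without Npas2 it was -0.74. Cry1 and Cry2, with log2 ratios of -0.00085 and 0.28, were not part of this contrast. The contrast was uneven within each arm, since Clock, Per1 and Per2 had ratios near 0. Within an animal, the log2 ratio of Arntl to Nr1d1 in TPM was -3.53 in replicate 2 and -2.10 in replicate 1, and that of Per3 to Arntl was -0.10 in replicate 2 and -1.59 in replicate 1. Arntl was below Clock in replicate 2, with a log2 ratio of -0.63, and level with it in replicate 1, with 0.0072.

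**Figure D3:**
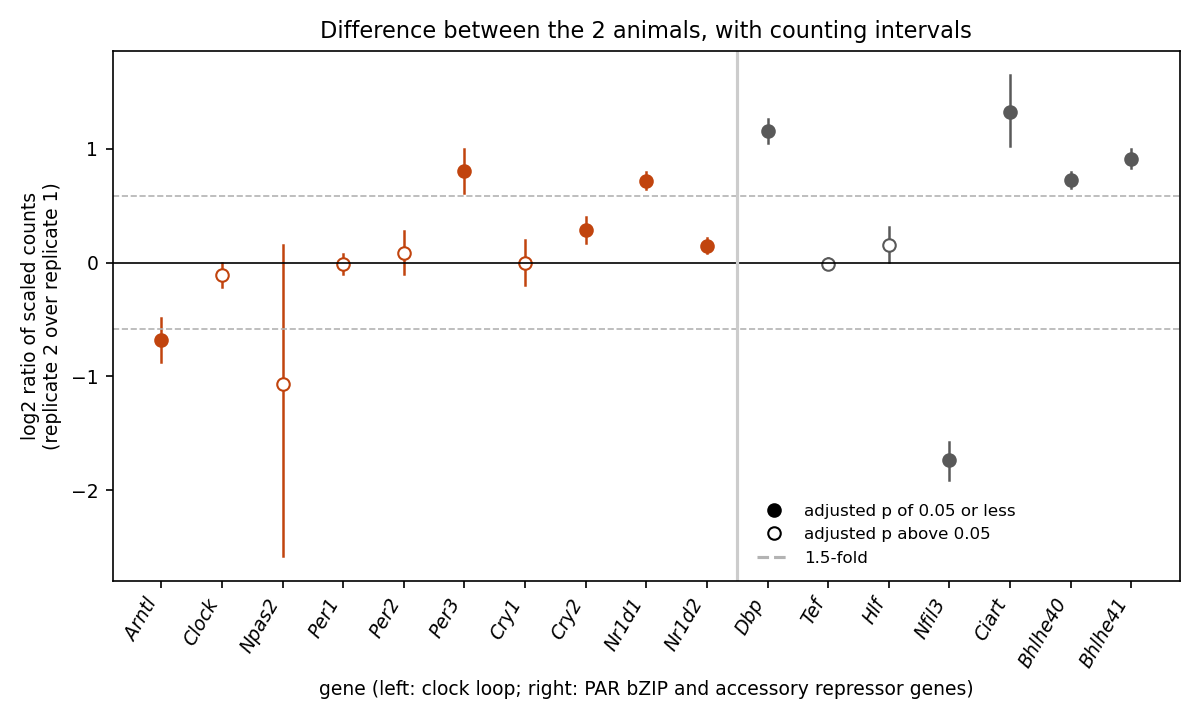
Log2 ratio of scaled counts, replicate 2 over replicate 1, with 95% counting intervals, for the 10 clock loop genes (left) and 7 output and accessory repressor genes (right). Filled points have an adjusted p of 0.05 or less and dashed lines mark 1.5-fold. Per3, Nr1d1, Dbp, Ciart, Bhlhe40 and Bhlhe41 lie above the upper line and Arntl, Nfil3 and Npas2 below the lower one. Npas2 is an open point, on 8 counts in replicate 2 and 16 in replicate 1.

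Transcript shares came from 2 quantifications of each library, the first made from alignments to the transcriptome and the second from reads and an index. The same transcript led in both animals and both quantifications for 8 of 10 members, the exceptions being Per1 and Npas2. Per2-201 held 100% of Per2 TPM throughout, and Nr1d1-201 held 98.9% in replicate 2 and 98.5% in replicate 1 in the first quantification. Cry2-201 held 88.8% in replicate 2 and 90.8% in replicate 1, and Arntl-201 82.4% and 68.0% in replicates 2 and 1. Arntl-206, also coding, held 15.6% of Arntl TPM in replicate 2 and 17.7% in replicate 1. A single coding form therefore led for each of these genes.

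Clock was split over 3 long coding transcripts. Clock-201 held 35.9% in replicate 2 and 59.4% in replicate 1, Clock-205 30.4% and 20.5%, and Clock-204 23.2% and 13.0% in replicates 2 and 1. The second quantification kept Clock-201 in the lead with 43.4% in replicate 2 and 59.4% in replicate 1. For Per3, Per3-201 held 69.8% in replicate 2 and 68.2% in replicate 1, and 2 transcripts annotated as retaining an intron, Per3-202 and Per3-205, held 26.9% and 31.8% together in replicates 2 and 1. Per3-201 itself had 525 counts in replicate 2 and 272 in replicate 1, so the difference in Per3 was present in its full-length coding form. Nr1d2-201 held 85.0% in replicate 2 and 80.0% in replicate 1, and the retained-intron form Nr1d2-202 13.7% and 16.7% in replicates 2 and 1. In the second quantification Nr1d2-204, an annotated fragment of 737 bases, took 15.8% in replicate 2 and 14.8% in replicate 1. The first quantification gave Nr1d2-204 none. For Cry1, Cry1-201 held 100% in both animals in the first quantification, while the second gave the retained-intron form Cry1-202 10.5% in replicate 2 and 23.6% in replicate 1 on 3.14 and 7.07 counts.

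**Figure D4:**
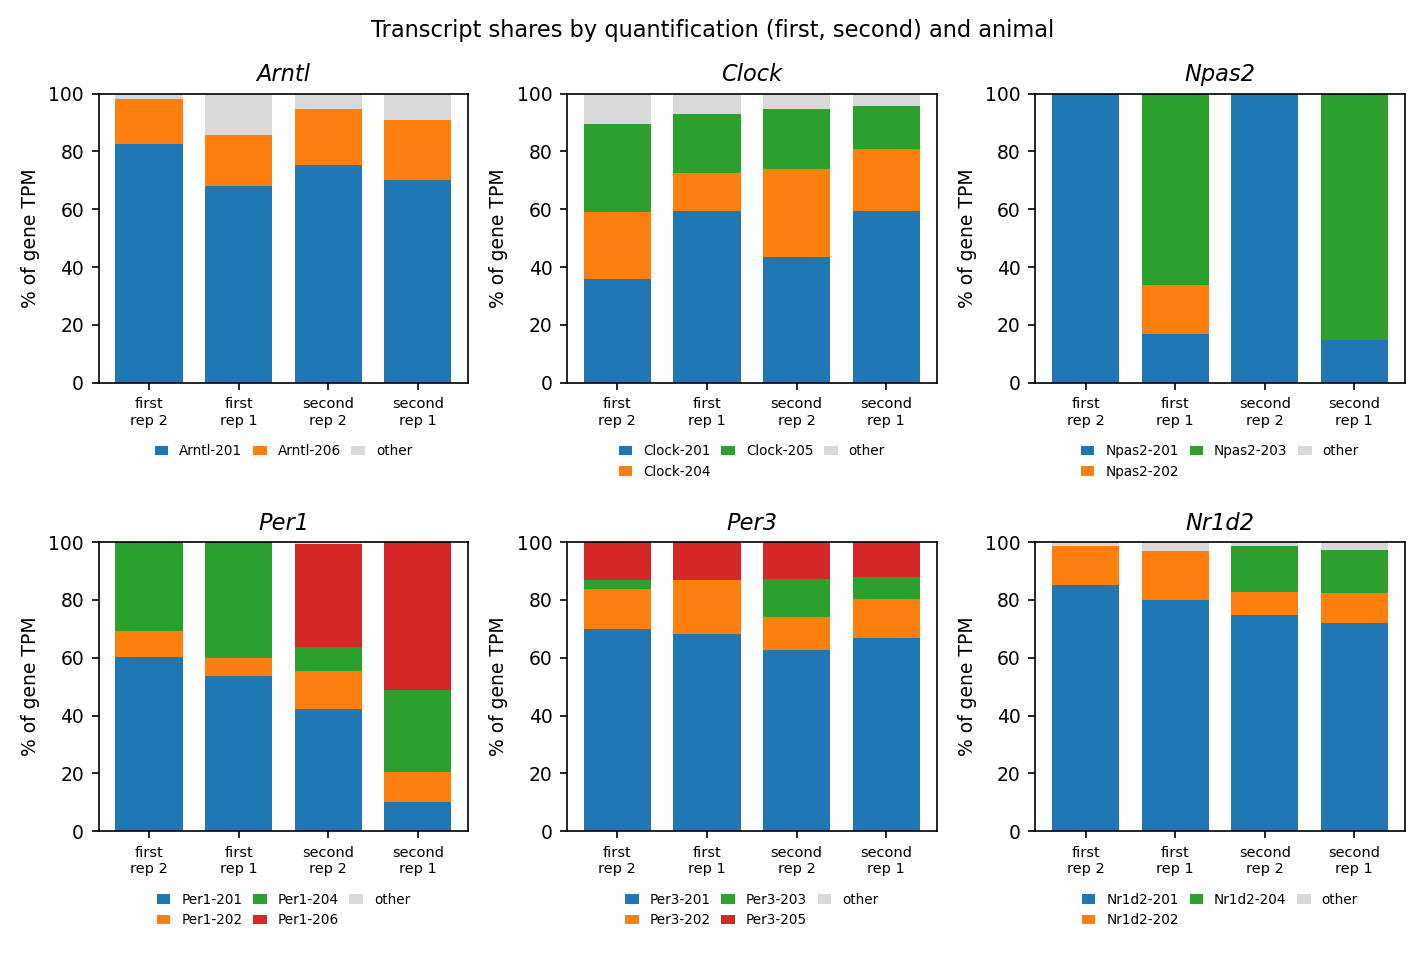
Percent of each gene's TPM held by its annotated transcripts, with bars for replicate 2 then replicate 1 in the first and then the second quantification, for the 6 members with shared or uncertain leads. Arntl-201, Clock-201, Per3-201 and Nr1d2-201 are the largest part of their gene in each bar, Nr1d2-204 appears only in the second quantification, and the leading transcript of Npas2 and of Per1 changes between bars.

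Per1 has alternative first exons, and its start could not be settled from these tables. Per1-201, which begins at the upstream start at base 69098948, held 60.1% of Per1 TPM in replicate 2 and 53.7% in replicate 1 in the first quantification. In the second it held 42.3% in replicate 2 and 10.0% in replicate 1. Transcripts from the downstream start at base 69100152, Per1-204 and Per1-206, together held 30.9% in replicate 2 and 40.1% in replicate 1 in the first quantification, and 43.7% and 79.6% in replicates 2 and 1 in the second. In counts the first quantification gave the downstream start 3.86% of Per1 reads in replicate 2 and 5.62% in replicate 1, since all of it was the 496-base fragment Per1-204. The second gave it 40.6% in replicate 2 and 74.8% in replicate 1, mostly as the full-length Per1-206, which the first listed at 0. The most upstream form, Per1-202, starting at base 69095217, held 8.99% in replicate 2 and 6.19% in replicate 1 in the first quantification and 13.3% and 10.3% in the second. Both quantifications gave the downstream start more of Per1 in replicate 1, and they gave that share very different sizes. The Per1 windows at the upstream and downstream starts, shown above, differ in that only the upstream one holds an E-box and a D-box.

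**Figure D5:**
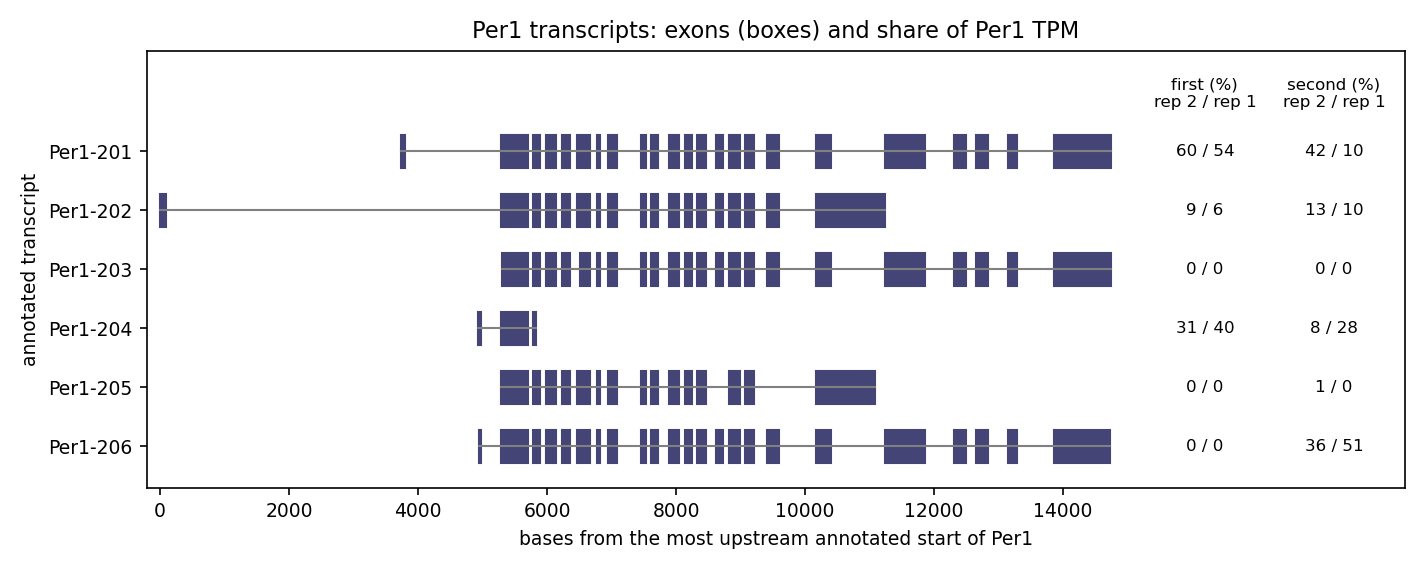
Exons (boxes) of the 6 annotated Per1 transcripts against distance in bases from the most upstream start, with each transcript's percent of Per1 TPM in replicate 2 and replicate 1 for the first and second quantification. Per1-201 and Per1-206 share their body and differ in the first exon, and the first quantification gave Per1-206 none while the second gave it 35.7% in replicate 2 and 51.2% in replicate 1.

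Other genes of the clock pathway were read from 8 lists with 57 genes, of which 55 were tested. Of these, 12 were higher and 17 lower in replicate 2 and 26 did not pass the exact test, with a median log2 ratio of -0.03, against 10.6% of all tested genes higher and 10.6% lower. The balance of directions depended on the scaling. Total counts gave 24 higher and 8 lower, against 25.3% and 5.09% of all tested genes, and spike-ins gave 7 higher and 34 lower, against 4.47% and 30.5%. The list of accessory repressors, which act on the same E-boxes or on CLOCK and BMAL1, was higher in replicate 2 for 3 of 3 genes, with a median of 0.91. Ciart, a repressor of CLOCK and BMAL1, had 10.1 TPM in replicate 2 and 3.89 TPM in replicate 1, a log2 count ratio of 1.33. Bhlhe41 (DEC2) had 34.8 TPM in replicate 2 and 17.7 TPM in replicate 1, with 0.91, and Bhlhe40 (DEC1) 59.99 TPM and 37.1 TPM in replicates 2 and 1, with 0.73. These 3 genes lay on the same side as Nr1d1 and Per3 under each of the 4 scalings.

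Among the PAR bZIP genes and their repressor, 1 of 4 passed in each direction, against 10.6% of all tested genes in each. Total counts gave 3 higher and 1 lower, against 25.3% and 5.09%, and spike-ins 1 higher and 2 lower, against 4.47% and 30.5%. Dbp and Nfil3 kept their direction and their call under each of the 4 scalings. Dbp, an activator of D-box genes and itself a direct CLOCK and BMAL1 target, had 2650 counts at 63.2 TPM in replicate 2, against 1073 counts at 28.8 TPM in replicate 1. It was higher in replicate 2 by a log2 ratio of 1.15 (exact test, adjusted p = 7.82e-116). Nfil3 (E4BP4), the repressor that binds the D-box, had 402 counts at 7.32 TPM in replicate 2, against 1211 counts at 25.0 TPM in replicate 1. It was lower in replicate 2 by a log2 ratio of -1.74 (exact test, adjusted p = 5.32e-111). The activator Dbp and the repressor Nfil3 of the element found in the Per3 window therefore differed in opposite directions, and their part in the Per3 value was not tested. Per1, whose upstream window also holds a D-box, had a log2 ratio of -0.01. Tef, the most abundant PAR bZIP gene at 86.2 TPM in replicate 2 and 81.2 TPM in replicate 1, had a log2 ratio of -0.01 and did not pass, but it passed as higher with total counts, at 0.10, and as lower with spike-ins, at -0.16. Hlf had 5.5 TPM in replicate 2 and 4.32 TPM in replicate 1 and did not pass either, at 0.16, but passed with total counts, at 0.27.

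Genes for ROR receptors and REV-ERB corepressors, which set how strongly the REV-ERB arm acts, had small ratios whose direction and call depended on the scaling. Rora, the receptor that competes with REV-ERB at the Arntl element, had 43.3 TPM in replicate 2 and 43.5 TPM in replicate 1. Its log2 count ratio of -0.06 did not pass (exact test, adjusted p = 0.0533), and it was 0.06 with total counts and -0.21 with spike-ins, where it passed. The corepressor gene Ncor1 had 48.5 TPM in replicate 2 and 59.9 TPM in replicate 1 but a count ratio of -0.03, which did not pass. It passed in opposite directions with total counts, at 0.09, and with spike-ins, at -0.18.

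Genes that modify clock proteins differed by small ratios. Of 9 kinases, 2 were lower and 2 higher in replicate 2, with a median of -0.01, while total counts gave 5 higher and spike-ins 6 lower. The main counts of this and the next lists are to be read against the 10.6% of all tested genes called in each direction. With total counts 25.3% of all tested genes were higher and 5.09% lower, and with spike-ins 4.47% and 30.5%. The casein kinase gene Csnk1e, whose product phosphorylates PER proteins, had a log2 ratio of 0.23 that did not pass with spike-ins, at 0.08, and the AMP-activated kinase genes Prkaa2 and Prkaa1, whose products phosphorylate CRY1, had 0.10 and -0.31. Prkaa2 turned to -0.05 with spike-ins, and Prkaa1 at -0.20 did not pass with total counts. Of the 7 tested ubiquitin genes, 1 was higher and 2 lower in replicate 2. The higher was Usp2, a deubiquitinase and clock target, at 103 TPM in replicate 2 and 91.7 TPM in replicate 1. The lower were Huwe1 with -0.14 and Fbxw11 with -0.20, which did not pass with total counts, at -0.02 and -0.08. Among 9 tested partners of the complexes, 1 was higher and 3 lower in replicate 2. The higher was the deacetylase gene Sirt1 with 0.39, which did not pass with spike-ins, at 0.25. The acetyltransferase gene Ep300, a coactivator of CLOCK and BMAL1, was lower with -0.18 and did not pass with total counts, at -0.06. Kmt2a was also lower, with -0.22, or -0.11 with total counts. The ubiquitin and partner lists also turned with scaling, with 5 and 6 genes lower under spike-ins and 3 and 2 higher under total counts. None of these 3 lists held a gene that was 1.5-fold apart.

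Among 9 genes that carry hormone and cAMP signals to Per1, 1 was higher and 4 lower in replicate 2, against 10.6% of all tested genes in each direction. Total counts gave 3 higher and 3 lower, against 25.3% and 5.09% of all tested genes. Spike-ins gave 0 higher and 5 lower, against 4.47% and 30.5%. Sik1, a kinase that restrains the cAMP coactivators and is itself induced by cAMP, had 2.64 TPM in replicate 2 and 9.44 TPM in replicate 1, a log2 ratio of -1.68. Crem, which includes a cAMP-induced repressor, had 4.96 TPM in replicate 2 and 10.3 TPM in replicate 1, with -0.80. The glucocorticoid target Tsc22d3 (GILZ) had 89.0 TPM in replicate 2 and 128 TPM in replicate 1, with -0.52, while Fkbp5, another glucocorticoid target, was higher in replicate 2 with 0.21 and did not pass with spike-ins, at 0.06. Sik1, Crem and Tsc22d3 were lower in replicate 2 under each of the 4 scalings.

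Of 8 muscle genes known to follow the clock, 3 were higher and 3 lower in replicate 2, with a median of -0.12, against 10.6% of all tested genes in each direction. Total counts gave 4 higher and 3 lower, against 25.3% and 5.09% of all tested genes. Spike-ins gave 2 higher and 5 lower, against 4.47% and 30.5%. Pdk4 and Ucp3 were lower under each of the 4 scalings. Pdk4, the kinase that turns off pyruvate dehydrogenase when muscle burns fat, had 76.7 TPM in replicate 2 and 302 TPM in replicate 1, a log2 ratio of -1.92. Ucp3, which encodes an uncoupling protein of muscle mitochondria, had 20.1 TPM in replicate 2 and 44.4 TPM in replicate 1, with -1.11. The sarcomere gene Tcap, a CLOCK and BMAL1 target, had 1754 TPM in replicate 2 and 1579 TPM in replicate 1, with 0.18, or 0.03 with spike-ins. The hexokinase gene Hk2 had 112 TPM in replicate 2 and 116 TPM in replicate 1 and did not pass, at -0.03, but passed in opposite directions with total counts, at 0.09, and with spike-ins, at -0.18.

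Markers of the cells in whole muscle also differed between the animals. The counts passing in the main test are to be read against the 10.6% of all tested genes called in each direction. Slow fibre markers were lower in replicate 2 for 5 of 5 genes, with a summed level of 750 TPM in replicate 2 and 1140 TPM in replicate 1. Smooth muscle and pericyte markers were higher in replicate 2 for 6 of 6 genes (133 TPM in replicate 2 and 101 TPM in replicate 1), adipocyte markers for 5 of 5 (89.6 TPM and 72.4 TPM in replicates 2 and 1) and endothelial markers for 4 of 6 (46.3 TPM and 39.6 TPM in replicates 2 and 1). With spike-in scaling the counts of markers passing as higher were 5 of 6, 2 of 5 and 1 of 6, against 4.47% of all tested genes. Skeletal fibre markers were higher for 7 of 7 genes by log2 ratios of at most 0.20. With spike-in scaling 5 of them were lower, against 30.5% of all tested genes. The 5 macrophage markers summed to 9.22 TPM in replicate 2 and 9.17 TPM in replicate 1. The 4 of them that were tested had log2 ratios from -0.07 to 0.31. Of 4 fibroblast markers, 1 was higher and 1 lower in replicate 2 (119 TPM in replicate 2 and 116 TPM in replicate 1). Neuron markers summed to 0.27 TPM in replicate 2 and 0.31 TPM in replicate 1 and were too low to test. Heart markers summed to 28.3 TPM in replicate 2 and 45.1 TPM in replicate 1, with 1 of 3 tested genes lower in replicate 2. That gene, Myh6, held most of the sum, at 26.5 TPM in replicate 2 and 43.9 TPM in replicate 1. The others averaged at most 1.12 TPM each. Of 15 immediate early and stress genes 3 were higher and 5 lower in replicate 2, with Nr4a3 at -3.42 and Gadd45b at 2.17. The part of these cell types and stress genes in the clock gene values was not tested.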

How the data were processed

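Total RNA of 2 gastrocnemius muscles was compared, 1 library each, in 1 group taken from the labels. Per the deposited README, the authors' tables used mm10 with GENCODE M21. Expected counts, as the authors deposited them, estimate the reads of each gene and carry no normalization. The deposited TPM values are scaled by transcript length and library, per the file headers, and the percent columns give each transcript's share of its gene. The deposited credibility bounds of TPM are in the same gene table. Per the file headers, the second transcript table holds its own estimated counts and TPM. The aligner, quantifier versions and strand setting are not given in the sources used here.

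Expected counts were rounded for the tests. TMM scaling of library sizes used edgeR 4.0.16 in R 4.3.3. Genes averaging at least 10 counts were tested by an exact two-sided conditional binomial test with Benjamini-Hochberg adjustment at 0.05 over all 14101 of them. Log2 ratios used a prior of 1 count, and TPM ratios between animals 0.1 TPM added. Intervals are at 95% and cover counting error only. P-values measure only how far these 2 libraries lie apart, which may in part be technical. Alternatives were other scalings (DESeq2 1.42.0 size factors, total counts, spike-ins), count minimums, priors, edgeR's exact test with an assumed variation between animals, the second quantification and each animal left out. The test, checked on simulated data, ran in scipy 1.17.1 under Python 3.11.15.

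The members and lists were chosen with earlier results of these data known. Named genes were all members, up to 3 genes of each other list by mean TPM and up to 2 by absolute log2 ratio at 100 or more counts on average, genes whose exons overlap a member, and transcripts with 10% or more of a member's TPM in any table. Some genes that the rule takes are left out of the text. Hlf and AC170187.1 fall outside that rule and were added after their values were seen. The 86 entries with no symbol in the second transcript table stayed in the fits unnamed. Words of 31 bases were used to measure shared sequence.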

Additional observations from a re-analysis of the deposited data

How the results depend on the processing

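The count of 5 members passing the test was again 5 under total counts, DESeq2 size factors, spike-ins, both other count minimums and the second quantification, but with spike-ins Clock and Per1 passed and Cry2 and Nr1d2 did not. The share of all tested genes called was 21.2% and became 30.4% with total counts and 35.0% with spike-ins. With spike-ins the Nr1d2 ratio turned to -0.0045. An assumed coefficient of variation of 0.1 between animals in edgeR's exact test left 2 members (Per3 and Nr1d1), and one of 0.2 left 0, with 0 members at an unadjusted p under 0.05. The difference between activators and period plus REV-ERB genes was -1.40 for Arntl against Nr1d1 alone, against -0.97 over all, and lay between -1.22 and -0.74 with each member left out in turn. The median member level of 7.06 ± 1.17 TPM was 5.85 TPM in the second quantification and ranged from 6.37 TPM without replicate 1 to 8.03 TPM without replicate 2. The log2 ratio of Arntl to Clock ranged from -0.63 without replicate 1 to 0.0072 without replicate 2, and that of Per2 to Per3 from -0.57 to 0.11. Reads per kilobase of the longest coding transcript, chosen after seeing the data, gave a Per1 to Per2 log2 ratio of 2.51, against 3.13 in TPM. Of the pathway genes 29 passed (12 higher and 17 lower in replicate 2), 32 with total counts (24 and 8), 41 with spike-ins (7 and 34) and from 28 to 31 under the other alternatives run. The cause of these shifts was not tested. With 1 library per animal, depth limits Npas2 in particular. No paired analysis was possible because the design has only 1 group.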
